A study of Oryza sativa with 16 samples.

Results

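The interval studied here is a stretch of rice chromosome 5 on both sides of RGA1, the gene mutated in the d1 line. Its members were chosen by identifier alone, as genes whose numbers run from OS05G0180000 to OS05G0400000 and that reached at least 1 FPKM in at least 2 of the 8 columns of the deposited table. RGA1 itself (OS05G0333200, the identifier known for this gene) was set apart. The interval holds 873 single identifiers besides RGA1, of which 481 met the expression criterion and are called members below. The other 392 did not, and 165 of these were listed at 0 in all 8 columns. The members were set against 1161 genes on the rest of chromosome 5 and 18114 genes on other chromosomes, which met the same criterion and bring the number tested to 19757.

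The d1 groups carry the d1-1 allele of RGA1 and the WT groups are wild-type rice, each at stages 1, 2, 4 and 7 of panicle initiation. Each of these 8 groups had 2 libraries of RNA from dissected shoot apical meristems of 3-month-old plants raised for 100 days in a greenhouse. The deposited table gives each group 1 combined value per gene, so no spread between libraries can be given. The labels do not define the stage numbers, name a cultivar, describe how d1-1 came into the line, or say whether the libraries came from separate plants. In such bulk samples, fewer cells of a type and less RNA per cell cannot be told apart.

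RGA1 encodes the alpha subunit of the rice heterotrimeric G protein. In its active state this subunit binds GTP, separates from the beta and gamma subunits, and passes the signal on inside the cell. Loss of RGA1 function gives the rice dwarf known as d1 or Daikoku, with short stems, erect leaves and small round grains. The shoot apical meristem is the dome of dividing cells that forms the leaves and, after the switch to flowering, the panicle. Genes that lie close together on a chromosome tend to be inherited together, so lines that differ by a mutation can also differ in the sequence next to it. No DNA sequence of either line was analysed here, and neither the deposited table nor the reference table pairs the members with gene names, so the members are given by identifier and without a role.

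FPKM values (fragments scaled by transcript length and by the total of the library) summed to between 621238 and 670519 per column. OSH1, the KNOX homeobox gene that marks the rice shoot meristem (OS03G0727000), had 354.1, 441.4, 477.8 and 251.4 FPKM in d1 and 353.8, 467.7, 476.1 and 234.5 FPKM in WT at stages 1, 2, 4 and 7. The meristem marker was thus abundant in every column of both genotypes. The median member averaged 11.94 FPKM over the 8 columns, against 12.87 FPKM for the rest of chromosome 5 and 11.51 FPKM for other chromosomes. Values in lists of 4 below always run through stages 1, 2, 4 and 7. Differences between genotypes are d1 minus WT on the log2(FPKM + 1) scale, which understates the change of low genes.

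Of the 481 members, 445 differed between the genotypes by less than 1 on the log2 scale at every stage, and 6 differed by 1 or more one way at each of the 4 stages. Of these 6, 4 were higher in d1 and 2 were lower. The share was 1.25% of members, against 2 genes or 0.172% on the rest of chromosome 5, 10 genes or 0.0552% on other chromosomes, and 18 genes or 0.0911% of all genes tested (0.0354% higher and 0.0557% lower in d1). Chromosome 5 held 8 of the 18 genes in all, chromosome 3 held 4, and each remaining chromosome held from 0 to 2. Of the 6 members, 5 met the expression criterion through columns of 1 genotype alone, as did 11 of the 18 genes overall. Such genes had to differ in order to be counted among those tested, so these shares are a description and carry no weight as a comparison. With no filter on low values the counts were 6 of 708 interval identifiers or 0.847%, 2 on the rest of chromosome 5 or 0.12%, and 18 of 29500 genes or 0.061%.

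OS05G0230501 had the largest difference. It was listed at 54.62, 45, 33.38 and 47.57 FPKM in d1 and at 0 in all 4 WT columns. Every d1 column therefore lay far above every WT column, and the d1 minus WT change in log2(FPKM + 1) was 5.51 ± 0.12 (SE). The limma fit over the 4 stages gave it an adjusted p of 0.00029 (Benjamini-Hochberg over all genes tested). Because the WT columns were at 0, the size of this change depends on the constant added before the logarithm, and it was 8.80 with 0.1 in place of 1.

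OS05G0281400 had 14.59, 12.18, 12.06 and 10.21 FPKM in d1, against 0, 0, 0 and 0.0426 FPKM in WT. The lowest d1 column stood more than 10 FPKM above the highest WT column. The change was 3.70 ± 0.11 (SE), with an adjusted p of 0.00071 in limma.

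OS05G0235701, which was picked out after its values were seen, gave 10.65, 10.3, 10.68 and 9.27 FPKM in d1 and was listed at 0 in all 4 WT columns. Its d1 values were nearly the same at every stage. The change was 3.49 ± 0.08 (SE), and the adjusted p in limma was 0.00029.

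OS05G0302833, also picked out after its values were seen, was the weakest of the 4 members on the higher side. It had 1.844, 1.383, 7.035 and 1.16 FPKM in d1 and was listed at 0 in all WT columns. The stage 4 value stood apart from the other d1 values, which were all under 2 FPKM. The difference of 1.72 ± 0.33 (SE) did not pass the test in limma (adjusted p = 0.08).

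Of the 2 members on the lower side, OS05G0206200 was listed at 0.008808, 0, 0.05764 and 0 FPKM in d1 and at 1.855, 1.63, 2.648 and 1.95 FPKM in WT. It is the mirror image of the members above, with WT alone above 1 FPKM. The change was -1.56 ± 0.11 (SE), with an adjusted p of 0.033 in limma.

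OS05G0373900 had 1.21, 1.085, 1.632 and 1.676 FPKM in d1, against 3.472, 4.421, 13.04 and 10.14 FPKM in WT. The d1 values stayed within a narrow range at all stages, whereas the WT values were higher at stages 4 and 7 than at stages 1 and 2. The difference of -1.72 ± 0.24 (SE) did not pass the test in limma (adjusted p = 0.064).

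**Figure D1:**
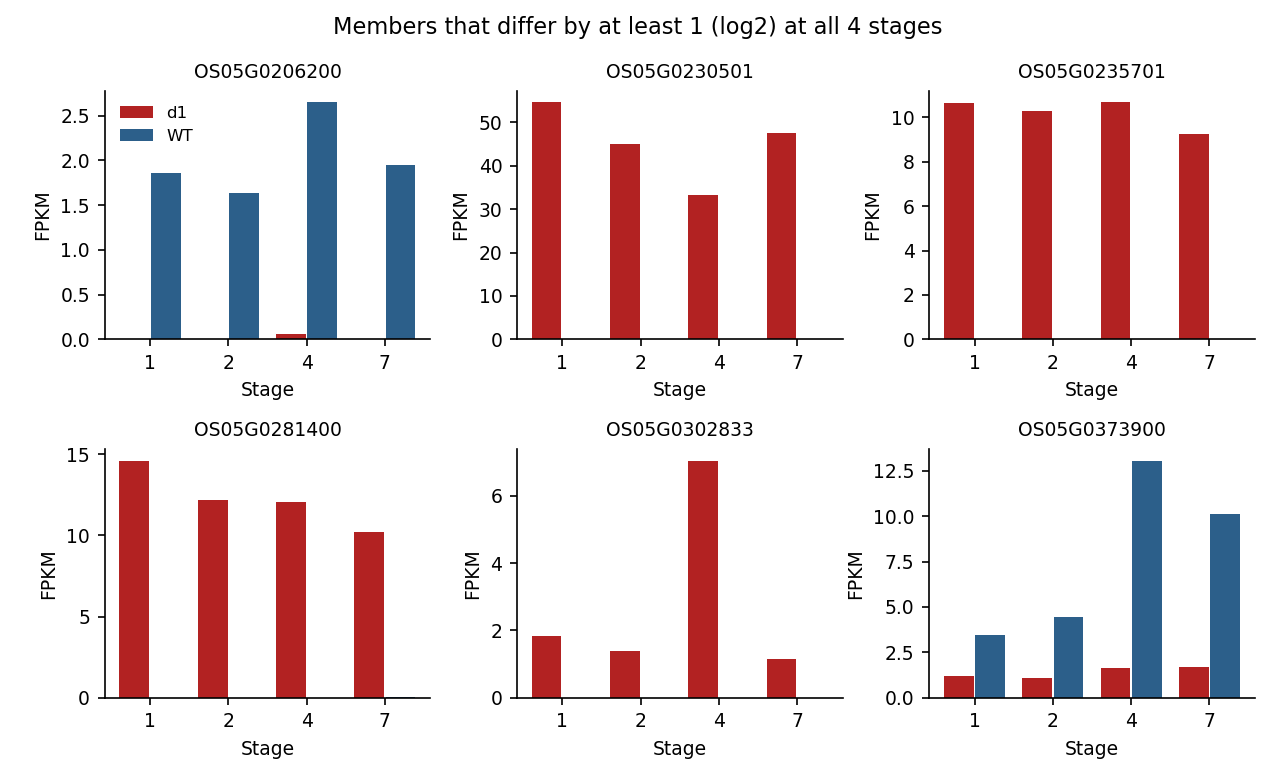
FPKM of the 6 members that differed by at least 1 on the log2 scale in 1 direction at all 4 stages, drawn by stage for d1 and WT. OS05G0230501, OS05G0235701 and OS05G0302833 are at 0 in every WT column, and OS05G0281400 reaches 0.0426 FPKM in WT at stage 7 only.

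These members did not sit beside RGA1 and did not sit beside each other. Counted in tested genes, OS05G0206200 lay 217 genes before RGA1, OS05G0230501 lay 165 before, OS05G0235701 lay 160 before, OS05G0281400 lay 100 before and OS05G0302833 lay 64 before. OS05G0373900 lay 117 genes after it. The 12 tested genes immediately on either side of the 6 members had differences from -0.33 to 0.37. None of these 12 passed the limma test at an adjusted p under 0.05, 4 had an unadjusted p under 0.05 (23.7% of all genes tested did), and 1 of them had d1 and WT columns that did not overlap (6.93% of all genes tested). OS05G0230501, for instance, is followed by OS05G0230600, which averaged 67.21 FPKM in d1 and 64.13 FPKM in WT, a difference of 0.07 ± 0.05 (SE). OS05G0302833 is preceded by OS05G0302750, which averaged 341.9 FPKM in d1 and 341.4 FPKM in WT, a difference of 0.00 ± 0.04 (SE). The neighbours' differences were thus all much smaller than those of the 6 members.

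**Figure D2:**
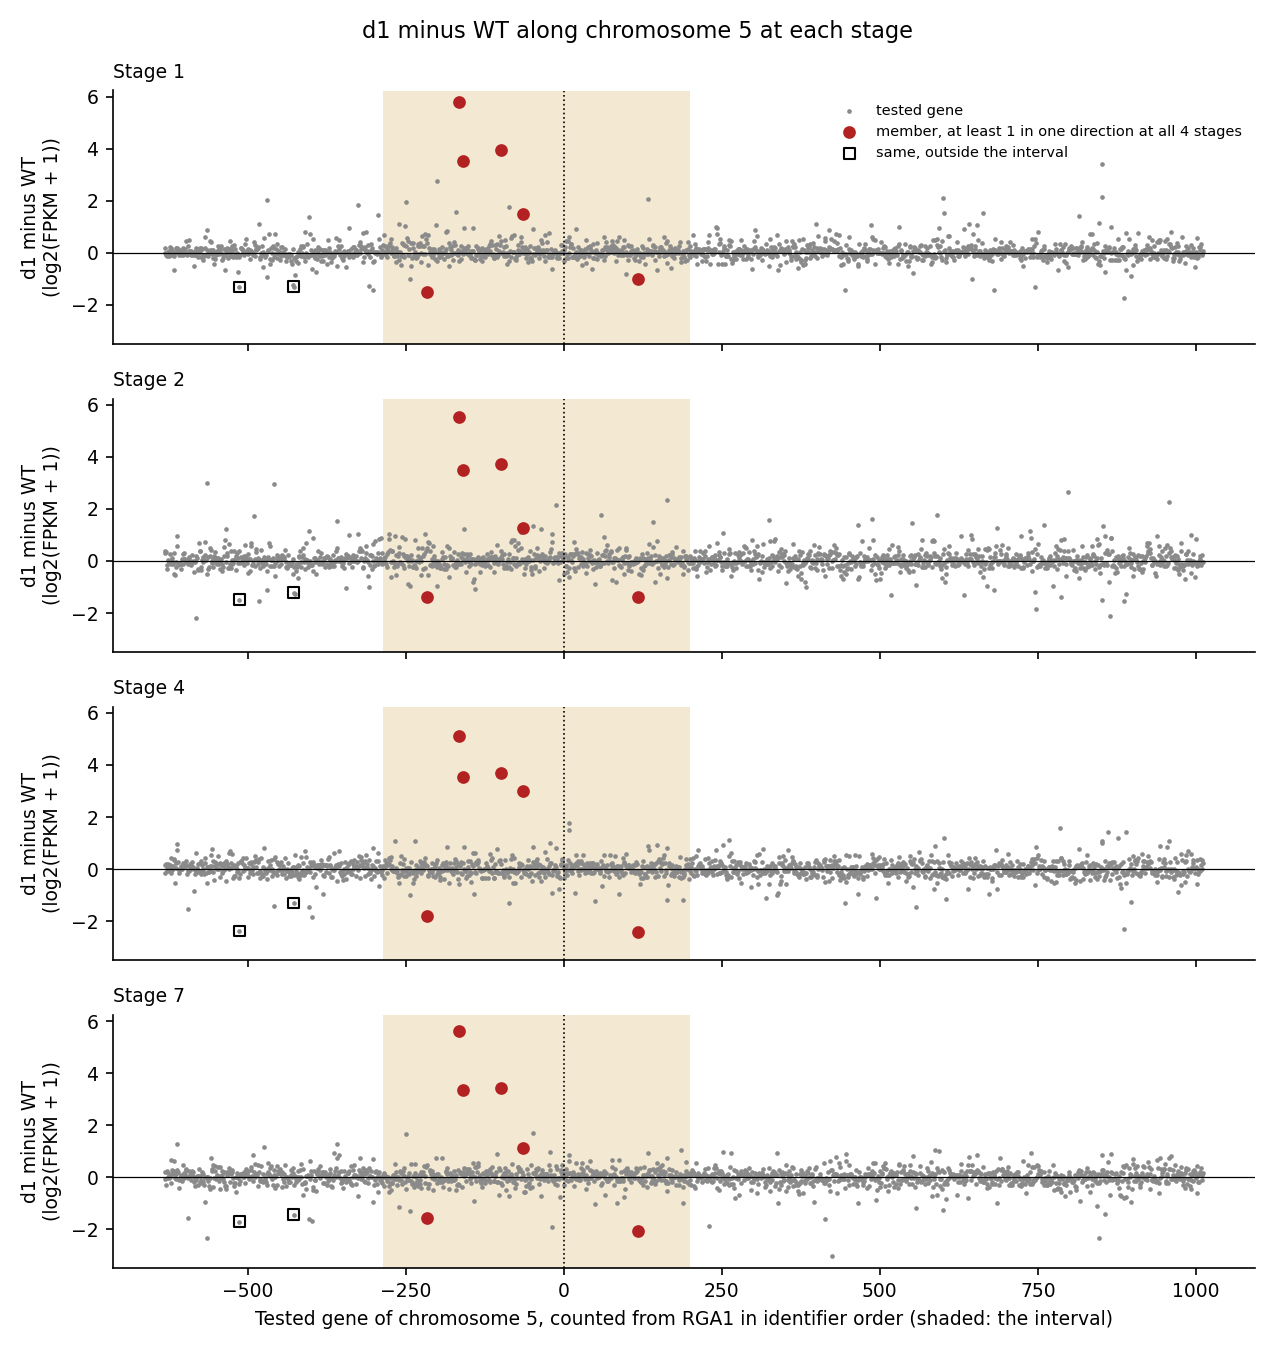
d1 minus WT difference in log2(FPKM + 1) for every tested chromosome 5 gene in identifier order, with the interval and RGA1 marked. In the limma fit over the 4 stages, the 3 highest members of the interval have differences of 5.51, 3.70 and 3.49. They stand before RGA1, among neighbours near 0.

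The limma fit treated stage as a block and measured how steady the d1 minus WT difference was over the 4 stages, so its SE and p-values do not describe the spread between plants. At an adjusted p under 0.05, 7 of the 481 members or 1.46% changed, 4 of them higher and 3 lower in d1. Over all genes tested, 48 or 0.243% passed (0.157% higher and 0.0860% lower in d1), with 3 genes or 0.258% on the rest of chromosome 5 and 38 genes or 0.210% on other chromosomes. Of the 7, 4 met the expression criterion through 1 genotype alone (OS05G0206200, OS05G0230501, OS05G0235701 and OS05G0281400), against 5 of the 48, so they were tested only because they were high in 1 genotype and the share is no support for a difference from other genes. The remaining 3 were OS05G0194550, OS05G0220900 and OS05G0296600. All 7 lay among the 283 members before RGA1, where they were 2.47%. None of the 198 members after RGA1 passed, although 43 of these had an unadjusted p under 0.05. The share with an unadjusted p under 0.05 was 26.4% among all members, 26.5% on the rest of chromosome 5 and 23.7% overall. With only genes averaging at least 5 FPKM kept, the shares at an adjusted p under 0.05 came close to each other, at 8 of 340 members or 2.35%, against 315 of 13754 genes or 2.29% overall. That mean is taken over all 8 columns, so OS05G0230501, OS05G0235701 and OS05G0281400 still entered through their d1 values and were among the 8. Another 3 of the 8 did not pass in the main fit. OS05G0230501, OS05G0235701 and OS05G0281400 passed under all 10 alternative settings of the fit, and the remaining 4 members that passed did not do so when any 1 stage was left out.

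The most abundant member that rose in d1 was OS05G0296600, with 52.86, 52.17, 45.65 and 42.2 FPKM in d1 and 33.75, 29.41, 30.79 and 29.52 FPKM in WT. The genotypes did not overlap, and the change was 0.62 ± 0.06 (SE; adjusted p = 0.043, limma). It lies 82 tested genes before RGA1. The most abundant member that fell was OS05G0220900, 181 genes before RGA1, with 17.02, 16.41, 17.03 and 17.43 FPKM in d1 and 24.32, 25.88, 25.39 and 24.16 FPKM in WT. Both genotypes were steady over the stages, and the change was -0.53 ± 0.05 (SE; adjusted p = 0.042, limma). OS05G0194550, 243 genes before RGA1, had 3.376, 3.049, 2.626 and 1.884 FPKM in d1 and 7.804, 6.971, 6.2 and 6.061 FPKM in WT. Its values were lower at later stages in both genotypes and lower in d1 at each, with a change of -1.07 ± 0.08 (SE; adjusted p = 0.039, limma). The scaling of the columns mattered for OS05G0220900, which no longer passed when the columns were scaled to the same median.

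RGA1 itself had 21.97, 20.89, 23.56 and 24.08 FPKM in d1, against 27.49, 29.6, 30.25 and 29.77 FPKM in WT. All 4 d1 columns lay below all 4 WT columns, and the transcript was plainly present in d1. The difference was -0.36 ± 0.05 (SE) and did not pass the test in limma (adjusted p = 0.064).

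The tested genes next to RGA1 had small differences between the genotypes. OS05G0332300, immediately before it, had 27.53, 26.89, 28.16 and 30.31 FPKM in d1 and 25.91, 25.61, 25.31 and 30.63 FPKM in WT, a difference of 0.07 ± 0.05 (SE; adjusted p = 0.39, limma). OS05G0334400, immediately after it, had 23.1, 21.23, 20.41 and 21.54 FPKM in d1 and 21.46, 18.89, 19.59 and 19.36 FPKM in WT, a difference of 0.12 ± 0.04 (SE; adjusted p = 0.19, limma). The d1 and WT ranges of both neighbours overlapped.

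Among the 20 tested genes nearest to RGA1, 10 on each side, the differences ran from -0.33 to 0.62, with 13 above 0 and 7 below. By limma, 0 of the 20 passed at an adjusted p under 0.05, 6 had an unadjusted p under 0.05 (23.7% of all genes tested did), and the smallest adjusted p was 0.08. The d1 and WT columns did not overlap in 2 of them, 1 higher and 1 lower in d1, against 6.93% of all genes tested. Both counts lie near these shares. The 2 nearby members with the largest stage 4 differences, picked out after their values were seen, were stage-dependent in both genotypes. OS05G0338900 had 1.45, 1.649, 23.95 and 36.01 FPKM in d1 and 0.6238, 2.189, 7.808 and 22.84 FPKM in WT. OS05G0338933, the next tested gene, had 0, 0.4054, 12.38 and 28.57 FPKM in d1 and 0, 1.145, 2.908 and 15.33 FPKM in WT. Both were far higher at stages 4 and 7 than at stages 1 and 2, and the sources used here do not say whether their reads can be told apart.

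**Figure D3:**
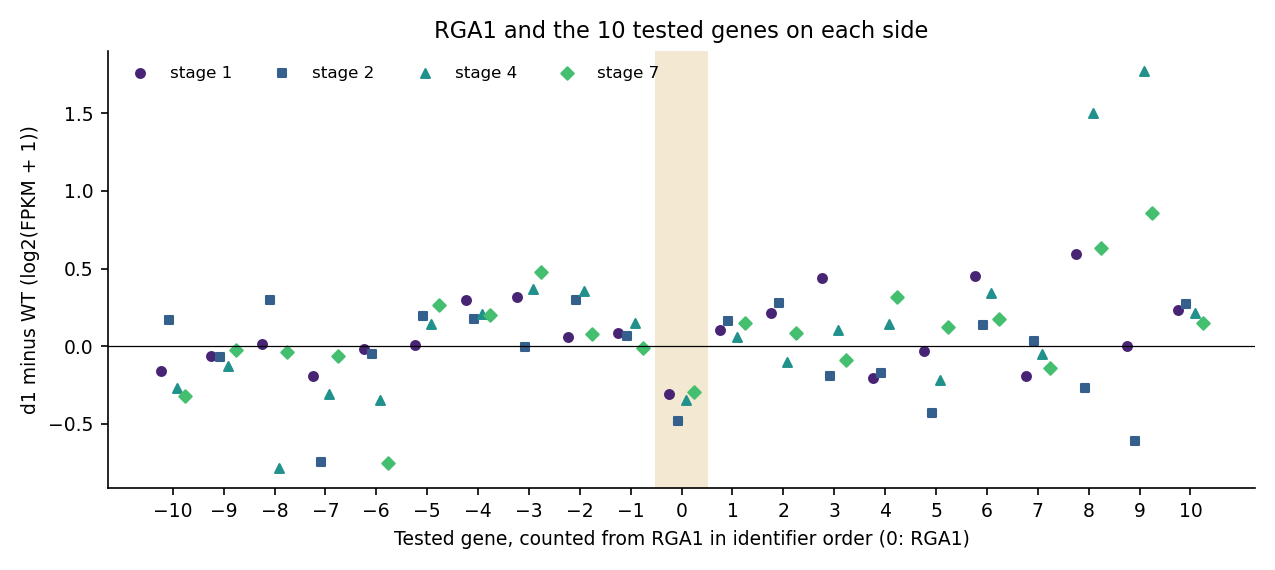
d1 minus WT difference in log2(FPKM + 1) at each stage for RGA1 and the 10 tested genes on each side of it, in identifier order. RGA1 is below 0 at all 4 stages, and the points farthest from 0 are those of OS05G0338933 and OS05G0338900 at stage 4, the first at 1.78.

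A further comparison asked which members were present in 1 genotype alone, that is at 1 FPKM or more in all 4 of its columns and at 0.1 FPKM or less in all 4 of the other. There were 5 such members or 1.04%, against 6 genes or 0.0304% of all genes tested (0.0253% in d1 alone and 0.00506% in WT alone). The rest of chromosome 5 had 0 and the other chromosomes had 1. OS05G0230501, OS05G0235701, OS05G0281400 and OS05G0302833 were present in d1 alone, and OS05G0206200 in WT alone. All 5 are described above. Each of the 6 genes in this count met the expression criterion through 1 genotype alone, as the definition requires, so the shares are given as a description. With thresholds of 0.5 and 0.05 FPKM, an alternative chosen after seeing the data, 5 members were present in d1 alone and 0 in WT alone. The share over all genes at those thresholds is not given here.

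Members listed at 0 in all 4 WT columns and above 0 in all 4 d1 columns numbered 4, which were the only such genes among all 19757 tested (0.0202%), and no tested gene (0.00%) showed the reverse. They were OS05G0230501, OS05G0235701, OS05G0302833 and OS05G0309000, the last picked out after its values were seen. All 4 met the expression criterion through d1 columns alone, as the definition requires, so the count is a description and carries no weight as a comparison. OS05G0309000 had 0.8682, 1.562, 0.8072 and 2.27 FPKM in d1, a difference of 1.21 ± 0.18 (SE) that did not pass the test in limma (adjusted p = 0.064). It lies 49 tested genes before RGA1. An exact 0 in a table of FPKM can be a failed estimate, and the depth behind these values is not known.

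Some members were counted only because of 1 genotype. In 15 members, values of at least 1 FPKM were found in d1 columns alone, and in 2 members in WT columns alone, together 3.53% of members against 1.12% of the rest of chromosome 5 (6 in d1 alone and 7 in WT alone) and 1.40% of all genes tested (0.825% in d1 alone and 0.577% in WT alone). No WT column of these 15 exceeded 0.979 FPKM, and their d1 means ran from 0.611 to 45.1 FPKM with a median of 0.976 FPKM. The d1 and WT columns overlapped in all but 6 of them. These members had to differ somewhat to be counted in this way, so their number carries no weight as a comparison.

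Members were also counted whose 4 d1 columns all lay above or all lay below the 4 WT columns. This held for 49 members or 10.2%, 26 of them higher and 23 lower in d1, against 6.93% of all genes tested (3.03% higher and 3.91% lower), 7.15% of the rest of chromosome 5 and 6.83% of other chromosomes. The median absolute difference of the 49 was 0.28, with a range from 0.07 to 5.51. It was under 0.5 in 35 of them and at least 1 in 8. Before RGA1 the share was 37 of 283 or 13.1%, and after RGA1 it was 12 of 198 or 6.06%. On the rest of the chromosome, the share was 5.75% of the 348 genes before the interval and 7.75% of the 813 genes after it. Of the 49 members, 6 met the expression criterion through d1 columns alone, and OS05G0206200 and OS05G0245700 did so through WT columns alone. Such genes had to differ somewhat to be tested, so these shares are a description and carry no weight as a comparison. The count also sets columns of different stages against each other, so a gene that changes with stage can miss it despite a steady difference. Between stages 1 and 7, 7.9% of members changed by at least 1 in d1 and 8.94% in WT. On the rest of chromosome 5 these shares were 12.6% and 13.7%, and their part in the count was not tested. The same sign at all 4 stages was seen in 33.3% of members and 33.2% of all genes tested.

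In segments of 20000 identifier numbers, the 11 segments of the interval had shares of 9.09%, 15.6%, 18.8%, 20.8%, 16%, 12.9%, 10.9%, 5.56%, 12.7%, 3.28% and 2.82% in chromosome order. The highest shares fell in the early segments of the interval, and the 2 segments at its far end had the lowest. Outside the interval, 14 segments ran from 2.7% to 11.8%. The 5 segments after the first of the interval, and the ninth, lay above that range. Those 5 held 45, 32, 24, 25 and 31 tested genes and the ninth held 55, against 67 to 102 in segments outside. Shares of so few genes scatter more, and the highest, 20.8%, is 5 of 24 genes. Some genes counted here met the expression criterion through 1 genotype alone, and genes that change with stage are less readily counted. No test was made of the difference between segments, since genes of 1 sample are not independent replicates.

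**Figure D4:**
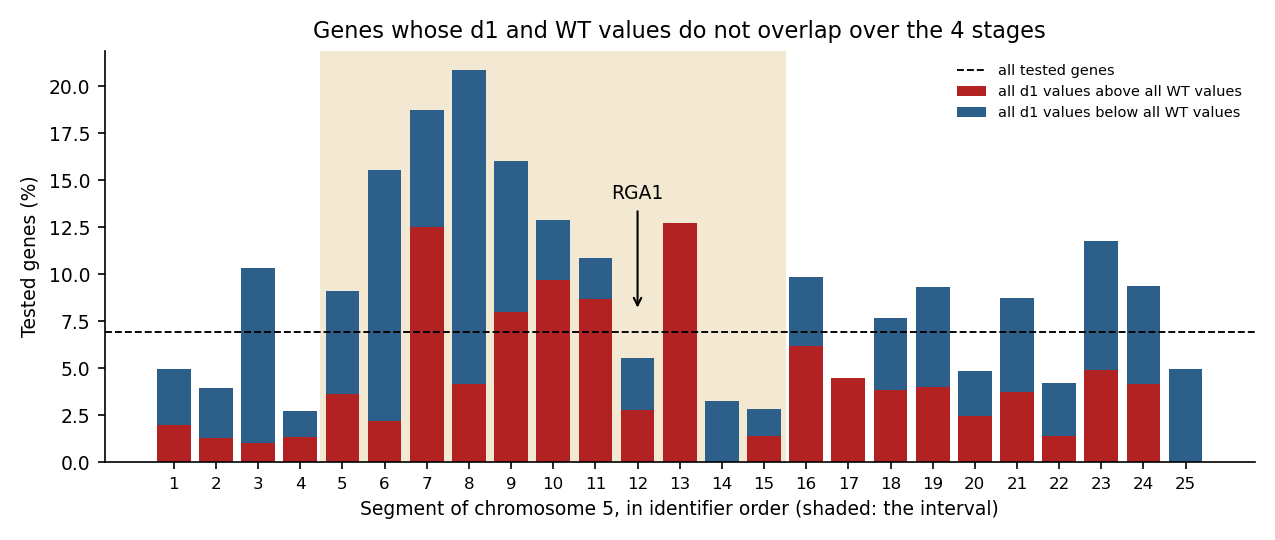
Share of tested genes, in percent, whose d1 and WT columns did not overlap, in consecutive segments of 20000 identifier numbers along chromosome 5. Segments of the interval reach 20.8% (5 of 24 genes), segments outside it reach 11.8% (12 of 102 genes), and the last 2 segments of the interval are at 3.28% and 2.82%.

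At single stages, members that differed by at least 1 on the log2 scale were counted, with 1 value per genotype and so no replicate check. At stage 1, 12 were higher and 3 lower in d1, together 3.12% of members, against 2.33% of the rest of chromosome 5 and 1.98% of all genes tested (1.52% higher and 0.456% lower). At stage 2, 15 were higher and 3 lower, or 3.74%, against 3.19% of the rest of chromosome 5 and 2.80% overall (1.71% higher and 1.09% lower). At stage 4, 9 were higher and 6 lower, or 3.12%, against 1.98% of the rest of chromosome 5 and 1.68% overall (0.719% higher and 0.957% lower). At stage 7, 7 were higher and 7 lower, or 2.91%, against 1.72% of the rest of chromosome 5 and 2.13% overall (0.592% higher and 1.53% lower). The 6 members described first made up 6 of the total at each stage, so the remaining members numbered 9, 12, 9 and 8. Of those 6, 5 met the expression criterion through columns of 1 genotype alone, as did some of the remaining members. The single-stage shares are therefore a description and carry no weight as a comparison.

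The balance of higher and lower genes differed between stages over all genes tested, of which 301 were higher and 90 lower at stage 1, 338 higher and 216 lower at stage 2, 142 higher and 189 lower at stage 4, and 117 higher and 303 lower at stage 7. Among the members other than those 6, there were 8 higher and 1 lower at stage 1, 11 higher and 1 lower at stage 2, 5 higher and 4 lower at stage 4, and 3 higher and 5 lower at stage 7. The photosynthesis identifier OS09G0346500, checked as a sign of green leaf tissue in the samples, had 11.92, 1.905, 3.258 and 1.692 FPKM in d1 and 2.792, 7.975, 0.9901 and 7.132 FPKM in WT. It was higher in d1 at stages 1 and 4 and higher in WT at stages 2 and 7, and it was the 1 identifier of the 3 looked for that the table holds. Its part in the counts at single stages was not tested.

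In all, 36 members or 7.48% passed a difference of 1 at some stage, against 6.04% of all genes tested. Of these, 22 did so at 1 stage, 8 at 2 stages, 0 at 3 stages and 6 at all 4. Some of the 36 met the expression criterion through 1 genotype alone, so the share of 7.48% carries no weight as a comparison. The 8 members at 2 stages were split, with 4 in the same direction at both and 4 in opposite directions, or 0.832% of members against 0.790% of all genes tested. At stage 7, OS05G0322900 was among the 2 lower members with the largest difference, with 1.324, 5.625, 2.669 and 3.55 FPKM in d1 and 2.602, 2.217, 5.866 and 16.33 FPKM in WT. Its differences changed sign between stages, at 1.04 for stage 2 and -1.93 for stage 7.

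The median sizes of the differences over the whole interval were close to those on the rest of chromosome 5, while the 95th percentile was higher at stage 4. The median difference of the members was 0.036, 0.039, 0.006 and 0.027, and the median absolute difference was 0.146, 0.171, 0.157 and 0.160. On the rest of chromosome 5 the median absolute difference was 0.132, 0.162, 0.165 and 0.165. The 95th percentile of the absolute difference among members was 0.701, 0.873, 0.850 and 0.725, against 0.702, 0.842, 0.630 and 0.706 on the rest of chromosome 5. It was 0.934, 0.974, 0.848 and 0.743 among members before RGA1, and 0.581, 0.744, 0.810 and 0.675 among those after it. The same sign at all 4 stages was seen in 90 members higher and 70 lower in d1, or 33.3%, against 33.2% of all genes tested (17.8% higher and 15.4% lower).

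Across the 481 members, the d1 minus WT difference at 1 stage was compared with that at another. These are correlations across genes, which are not independent replicates, and they are given as a description. Pearson's r was 0.633 for stages 1 and 2, 0.665 for stages 1 and 4, 0.633 for stages 1 and 7, 0.599 for stages 2 and 4, 0.541 for stages 2 and 7 and 0.803 for stages 4 and 7. Without the 6 members that differed at all stages, r over the other 475 was 0.251, 0.275, 0.195, 0.185, 0.054 and 0.581 for the same pairs. On the rest of chromosome 5 it was 0.241, 0.392, 0.126, 0.154, 0.046 and 0.488. Spearman's rho over all members was 0.429, 0.464, 0.218, 0.284, 0.098 and 0.567 for these pairs, and without the 6 it was 0.407, 0.443, 0.189, 0.257, 0.064 and 0.550. The 6 large differences thus raised r, while the rank likeness of the stages was nearly as high without them.

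**Figure D5:**
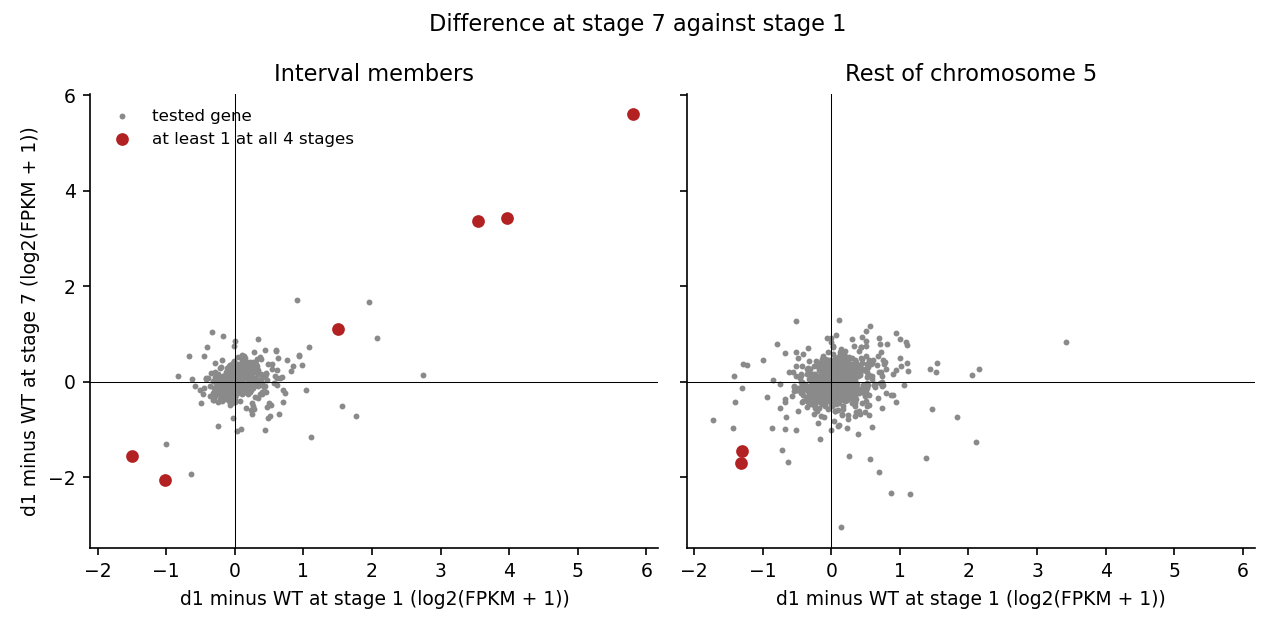
d1 minus WT difference in log2(FPKM + 1) at stage 7 against that at stage 1, each point a tested gene. Over all 481 members r is 0.633, and without the 6 members that differed at all 4 stages it is 0.195, while Spearman's rho is 0.218 and 0.189.

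Stages 1 and 7 were also compared within each genotype, with no test. In d1, 22 members were higher and 16 lower at stage 7 by at least 1 on the log2 scale, or 7.9%, against 12.6% of the rest of chromosome 5 and 10.5% of all genes tested (6.22% higher and 4.25% lower). In WT, 31 were higher and 12 lower, or 8.94%, against 13.7% of the rest of chromosome 5 and 10.7% of all genes tested (7.88% higher and 2.79% lower). Of the 57 members counted in either genotype, 24 were counted in both in the same direction, 0 in opposite directions and 33 in 1 genotype alone. Over all genes tested, 2770 were counted in either genotype. Of these, 1367 changed in the same direction in both, 40 in opposite directions and 1363 in 1 genotype alone. The 24 are 63.2% of those counted in d1 and 55.8% of those counted in WT, against 66.1% and 64.8% over all genes tested. OS05G0223300, the most abundant member, had 1265, 1338, 900.3 and 275.3 FPKM in d1 and 1043, 1235, 986.8 and 272.6 FPKM in WT, far lower at stage 7 in both.

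The most abundant members had small differences between genotypes. The 10 with the highest means averaged from 238 to 914.5 FPKM, and their d1 minus WT differences ran from -0.01 to 0.25. By limma 0 of the 10 passed at an adjusted p under 0.05, 4 had an unadjusted p under 0.05 (23.7% of all genes tested did), and the smallest adjusted p was 0.086. The d1 and WT columns overlapped in all 10.

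The ends of the interval, set by identifier number, fell among genes with little difference. The first member, OS05G0180300, had 19.66, 18.47, 31.4 and 27.72 FPKM in d1 and 16.01, 16.68, 24.69 and 26.77 FPKM in WT, a difference of 0.20 ± 0.06 (SE; adjusted p = 0.14, limma). The tested gene just outside it, OS05G0179950, had 1.15, 0.7598, 1.219 and 3 FPKM in d1 and 0.3379, 0.7388, 1.835 and 4.071 FPKM in WT, a difference of 0.00 ± 0.20 (SE). The last member, OS05G0399200, had 8.19, 7.877, 6.295 and 3.252 FPKM in d1 and 8.664, 8.289, 8.621 and 4.117 FPKM in WT, a difference of -0.20 ± 0.08 (SE; adjusted p = 0.21, limma). Just outside this end, OS05G0400400 had 182.2, 185.2, 206.8 and 165.2 FPKM in d1 and 152.4, 160.9, 157.9 and 149.1 FPKM in WT. It was higher in d1 without overlap, but its difference of 0.25 ± 0.05 (SE) did not pass the test in limma (adjusted p = 0.086).

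The expression criterion also had an edge. OS05G0368350 was just inside it, with a second-highest column of 1.003 FPKM, and OS05G0332600 was just outside, with 0.9957 FPKM. OS05G0368350 had 1.003, 0.3406, 0.6845 and 0.4201 FPKM in d1 and 0.425, 0.9177, 0.411 and 1.398 FPKM in WT. OS05G0332600 had 0.07717, 0.4553, 0.09251 and 0.9957 FPKM in d1 and 0, 0, 0.04847 and 1.771 FPKM in WT.

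On the rest of chromosome 5, the 2 genes that differed by at least 1 at all 4 stages both lay before the interval and were lower in d1. They were picked out after their values were seen. OS05G0146900 had 8.271, 8.449, 8.81 and 8.805 FPKM in d1 and 21.89, 20.9, 23.25 and 25.7 FPKM in WT, a change of -1.32 ± 0.06 (SE; adjusted p = 0.0036, limma). OS05G0122700 had 0.3433, 0.5037, 0.1825 and 0.3985 FPKM in d1 and 2.336, 3.225, 5.187 and 3.573 FPKM in WT, a difference of -1.72 ± 0.19 (SE; adjusted p = 0.056, limma). These lie 427 and 513 tested genes before RGA1, so steady differences on the chromosome were not confined to the interval.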

How the data were processed

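RNA-seq was measured in 16 libraries of rice shoot apical meristem, 2 for each of 8 groups of genotype and stage taken from the labels. Tools listed in the submitters' processing notes are FastQC, Trimmomatic and TopHat2, then Cufflinks with Cuffdiff, on the build IRGSP-1.0. The table the authors deposited holds values taken here as FPKM, a unit inferred from those tools and from the values, combined over the libraries of a group. The sources used here do not describe the scaling between columns, FPKM hold no counts, and the depth behind a value is unknown, so no counting interval can be given.

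Of 34302 rows, 19757 had at least 1 FPKM in at least 2 columns. On log2(FPKM + 1), limma (version 3.58.1 in R 4.3.3; eBayes with trend) was fitted to all of them with a block for stage and p-values adjusted by Benjamini-Hochberg, on 3 residual and 2.54 prior degrees of freedom. It replaces a test between single libraries, which the combined values do not allow. Single stages were counted without a test at an absolute log2 difference of 1. The fit was tested on simulated data. The alternatives were other pseudocounts, filters, scalings and weights, and leaving out each stage. For each comparison the text names at most the 2 members higher and the 2 lower with the largest change, the most abundant members that passed, RGA1, its neighbours and the edges; others are marked. The members and lists were chosen with earlier results of these data known. The reference gene table (assembly ASM3414082v1) lists RGA1 on chromosome 5 and 0 of the interval's identifiers, so no coordinates or sequences are given.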

Additional observations from a re-analysis of the deposited data

Results flagged for a closer look

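In 4 members of the interval the d1 minus WT difference in log2(FPKM + 1) passed 1 in one direction at 1 stage and in the other direction at another. They are 0.832% of members, against 0.790% of all genes tested. With 1 value per group the difference between stages was not tested. OS05G0186300 was at 1.11 for stage 1 and -1.15 for stage 7. OS05G0295500 was at 1.77 for stage 1 and -1.30 for stage 4. OS05G0322900 was at 1.04 for stage 2 and -1.93 for stage 7. OS05G0390600 was at 2.35 for stage 2 and -1.18 for stage 4.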

How the results depend on the processing

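For replicate libraries, no paired analysis was possible because the deposited columns are group values without single libraries. Replicates could not be left out in turn for the same reason. The limma fit paired only the combined d1 and WT columns of each stage, through its block for stage. The number of members at an adjusted p under 0.05 in limma was 7. It was 3 without the filter on low values (0.424%, against 0.0237% of all genes), 3 without each of stages 1, 2, 4 and 7 (0.624%, against 0.0202% to 0.0253%) and 17 with array weights (3.53%, against 2.03%). It stayed within 1.5 times of 7 under the other alternatives. Counts at stages 1, 2, 4 and 7 were 32, 44, 34 and 30 with a pseudocount of 0.1, and 6, 6, 7 and 5 with a mean of at least 5 FPKM. Under quantile normalization 9 members were higher and 9 lower at stage 4, and 8 higher and 7 lower at stage 7. Members that differed at all 4 stages numbered 3 with that mean. Members present in 1 genotype numbered 3 with it, 3 with thresholds of 2 and 0.1 FPKM, and 5 (5 in d1, 0 in WT) with 0.5 and 0.05 FPKM, alternatives chosen after seeing the data. For the stage counts, the count at all 4 stages and the count in 1 genotype, shares over all genes under these settings are not given. Those counts therefore carry no weight as a comparison. The cause of these shifts was not tested. The adjusted p of RGA1 ran from 0.044 to 0.30 over the alternatives. Of the 12 genes refitted under the alternatives, RGA1 among them, none reversed direction.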

Other observations

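Among the 392 interval identifiers that did not reach the expression criterion, 227 had some value above 0. Of all 392, 1 was listed at 0 in every WT column and above 0 in every d1 column, and 0 showed the reverse. The same count outside the interval is not given here, so these numbers carry no weight as a comparison.

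Identifiers whose last 2 digits are not 00 made up 65 of the 481 members or 13.5%, against 12.8% on the rest of chromosome 5. Among the 6 members that differed at all 4 stages they were 3, namely OS05G0230501, OS05G0235701 and OS05G0302833. This was noticed after the values were seen and was not tested.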
